A study of Danio rerio with 12 samples.

Results

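The 10 genes described here cover the route of iron into a developing red blood cell and its storage and export. They are the plasma iron carrier tfa, the transferrin receptors tfr1a and tfr1b, the endosomal iron transporter slc11a2, the mitochondrial iron importer slc25a37, the ferritins fth1a and fthl27, the iron exporter slc40a1, and the iron regulatory proteins aco1 and ireb2. They were chosen by name, with earlier results of these data known. Each name matched 1 Ensembl gene ID, 4 of them through the symbol of the human orthologue, so the set holds 10 of the 32520 genes in the table. All 10 were among the 21778 genes with enough reads to be tested.

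RNA of whole zebrafish embryos was sequenced from moonshine mutants (mon) and from their siblings at 22 and 30 hours post fertilization (hpf). The moonshine line carries a mutation of trim33, which encodes the transcriptional cofactor TIF1γ, and its mutants fail to make red blood cells. Mutants and siblings taken at each stage made 4 groups of 3 libraries, and none of the embryos was treated. The mon embryos came from crosses of 2 heterozygous carriers. A green fluorescent reporter driven by the drl gene (drl:EGFP) came from 1 parent of each cross, and its weak signal was used to pick the mutants from about 21 hpf onwards, so the groups rest on phenotype. The siblings are labelled wild-type/het, and their pools may hold heterozygous carriers. Each library held 30 pooled embryos of 1 phenotype from 1 clutch of a single pair of parents. Clutches 9, 11 and 13 were used at 22 hpf and clutches 3, 4 and 9 at 30 hpf.

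Iron circulates bound to transferrin, which red cell precursors take up through the transferrin receptor by endocytosis. In the endosome the iron is released and reduced by the ferrireductase Steap3 and leaves through the transporter DMT1, the product of slc11a2. Mitoferrin 1, the product of slc25a37, carries it into mitochondria, where it is built into heme and iron-sulfur clusters. Spare iron is held in ferritin shells, and ferroportin, the product of slc40a1, exports iron from cells. Iron regulatory proteins bind hairpins in the messenger RNAs of ferritin, ferroportin and the transferrin receptor and act on their translation or stability. Zebrafish lines that lack function of tfr1a (chianti), slc11a2 (chardonnay), slc25a37 (frascati), slc40a1 (weissherbst) or tfa (gavi) are anemic.

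Totals ranged over the 12 libraries between 18233320 and 23135676 counts, and 26261 to 26974 genes had at least 1 read. The mutated gene trim33 (ENSDARG00000016181) lay between 50.7 and 67.7 CPM in mon and between 84.2 and 89.4 CPM in siblings at 22 hpf, lower in mon by a log2 value of -0.56 (edgeR quasi-likelihood test, adjusted p = 0.00129). At 30 hpf it lay between 71.7 and 72.8 CPM in mon and between 75.5 and 78.0 CPM in siblings (log2 -0.08, edgeR, adjusted p = 1). CPM is the usual depth-scaled read count, here after TMM scaling. These values do not correct for transcript length, so levels are not compared between genes. Summed over 10 erythroid marker genes, the level was 23.9 to 37.0 CPM in mon and 269.4 to 328.5 CPM in siblings at 22 hpf, and 15.0 to 19.6 CPM in mon and 1624.8 to 1806.7 CPM in siblings at 30 hpf. Of these markers 8 were lower in mon at 22 hpf and 9 at 30 hpf (edgeR, adjusted p under 0.05), and none had 0 reads over a whole group. The symbol SLC4A1 supplied 2 of the 10 IDs, and the marker name hbbe1.1 matched none. Of the 2, ENSDARG00000024560 was called at neither stage (log2 -0.86 ± 0.20 and -0.51 ± 0.18, edgeR, adjusted p = 0.0936 and 0.533). The embryonic globin hbbe3, which marks red cells, averaged 0.949 ± 0.410 CPM in mon pools and 79.1 ± 1.48 CPM in sibling pools at 22 hpf. In bulk samples fewer cells of a type and less RNA per cell cannot be told apart. Every fall of an iron gene reported here stands beside these marker values, and the part of the markers in it was not tested.

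**Figure D1:**
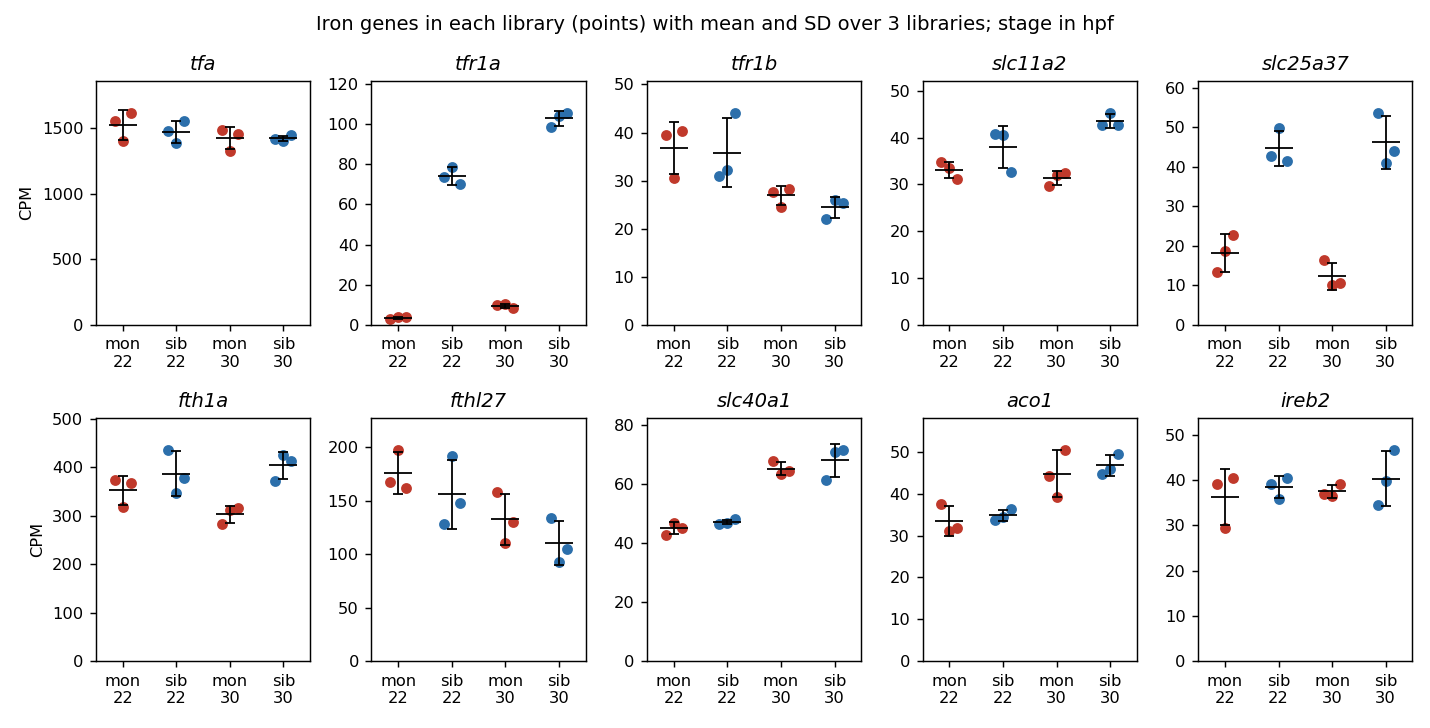
Level of each of the 10 iron genes in CPM (vertical axes from 0, own scale for each gene) in the mon (red) and sibling (blue) libraries at 22 and 30 hpf. Points are libraries, and black marks are the mean and SD of 3 libraries. The points of tfr1a and slc25a37 in mon lie below all sibling points at both stages, and those of slc11a2 and fth1a do so at 30 hpf.

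Without clutch in the fit, only falls were called among the 10 iron genes in mutants against siblings. At 22 hpf tfr1a and slc25a37 were lower in mon, and at 30 hpf tfr1a, slc25a37, slc11a2 and fth1a were. Both receptor and importer fell by more than any other gene of the set, to 4.67 ± 0.743% and 41.1 ± 12.3% of the sibling level of the same clutch at 22 hpf and to 9.23 ± 1.13% and 26.3 ± 3.5% at 30 hpf (mean ± SD over 3 clutches). Thus 2 of 10 genes were called at 22 hpf, both lower, where 0.445% of all tested genes were called, 0.312% lower and 0.133% higher (edgeR quasi-likelihood, Benjamini-Hochberg adjusted p under 0.05). At 30 hpf 4 of 10 were called, all lower, where 0.79% of all tested genes were, 0.551% lower and 0.239% higher. No gene of the set was called higher at either stage by edgeR without the block, DESeq2 or limma-voom, and none of the higher values had an unadjusted p under 0.05. The median log2 fold change of the 10 was -0.07 at 22 hpf and -0.08 at 30 hpf, beside 0.0029 and 0.0015 over all genes. The libraries of mon and siblings did not overlap for 2 of the 10 genes at 22 hpf, where this held for 8.45% of all tested genes. At 30 hpf they did not overlap for 4 of the 10, where this held for 12.3% of all tested genes. A fit with clutch as a block called 3 genes lower and 1 higher at 22 hpf, and 4 lower and 1 higher at 30 hpf, where it called 1.48% and 3.09% of all genes.

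The plasma carrier did not differ beyond the spread of the libraries. In fish embryos tfa is expressed in the yolk syncytial layer, the tissue that feeds the embryo from the yolk. At 22 hpf tfa (ENSDARG00000016771) had 1554.3, 1400.6 and 1618.7 CPM in mon clutches 9, 11 and 13, against 1482.6, 1387.3 and 1553.7 CPM in the siblings of the same clutches. At 30 hpf it had 1488.8, 1328.0 and 1460.3 CPM in mon clutches 3, 4 and 9, against 1418.3, 1405.3 and 1446.3 CPM in their siblings. The groups overlapped at both stages. The 95% intervals of the log2 fold change were -0.07 to 0.17 at 22 hpf and -0.12 to 0.12 at 30 hpf, so a change of transferrin of the size seen for its receptor lies outside them. Summed over 8 markers of the yolk syncytial layer, the level was 22305.4 to 22690.4 CPM in mon and 20395.0 to 21226.7 CPM in siblings at 22 hpf, and 27560.7 to 28566.0 CPM in mon and 26762.2 to 28343.4 CPM in siblings at 30 hpf. The sums of mon lay above those of siblings at 22 hpf and overlapped them at 30 hpf. None of the 7 tested markers was called at either stage (edgeR, adjusted p under 0.05), and 1 was higher in mon with an unadjusted p under 0.05 at each stage. DESeq2 and limma-voom called none of them. Under the clutch block apobb.1 (adjusted p = 0.000482) and apoa1b (0.0328) were higher in mon at 22 hpf, each by a log2 value of 0.11, and mttp was higher at 30 hpf by 0.16 (edgeR, adjusted p = 0.0357). Their part in the values of tfa was not tested.

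The receptor of the red cell lineage showed the largest change of the set. The transferrin receptor tfr1a (ENSDARG00000101322) had 2.86, 3.77 and 3.76 CPM in mon clutches 9, 11 and 13 at 22 hpf, against 73.7, 78.8 and 70.3 CPM in their siblings. These levels rested on 59 to 83 reads in mon and 1369 to 1583 reads in siblings. Every mon library was thus far below every sibling library, and the spread within a group was small. The level averaged 3.46 ± 0.523 CPM in mon pools and 74.2 ± 4.27 CPM in sibling pools (SD, n = 3 libraries each), 21.4-fold lower in mon. On the log2 scale tfr1a fell by 4.42 ± 0.11 (edgeR, adjusted p = 8.75e-14). Here and below the error of a log2 fold change is its approximate standard error.

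At 30 hpf tfr1a had 9.70, 10.3 and 8.38 CPM in mon clutches 3, 4 and 9, against 98.7, 104.2 and 105.7 CPM in their siblings. The groups again lay far apart, at 9.47 ± 0.999 CPM in mon pools and 102.9 ± 3.71 CPM in sibling pools (SD, n = 3 libraries each). The fall was 10.9-fold, or -3.44 ± 0.10 on the log2 scale (edgeR, adjusted p = 4.42e-13). Neither the direction nor the call of tfr1a changed at either stage in any of the 20 alternative fits, which spanned log2 fold changes of -4.49 to -4.30 at 22 hpf.

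The second receptor copy did not follow it. The gene tfr1b encodes a transferrin receptor that is expressed widely and is not needed for hemoglobin in zebrafish red cells. At 22 hpf tfr1b (ENSDARG00000077372) had 39.5, 30.5 and 40.4 CPM in mon clutches 9, 11 and 13, against 31.0, 32.2 and 44.1 CPM in their siblings. At 30 hpf the levels were 27.7, 24.6 and 28.3 CPM in mon clutches 3, 4 and 9 and 22.0, 25.9 and 25.4 CPM in their siblings. The libraries overlapped at both stages, and mon was the higher of the pair in 3 of 6 clutch pairs. The log2 fold change was 0.04 ± 0.13 at 22 hpf (95% interval -0.25 to 0.32) and 0.14 ± 0.14 at 30 hpf (-0.15 to 0.43), with an edgeR adjusted p of 1 at both stages. Reads that fit both receptor copies may be lost or shared in counting, so the exact levels of the pair are uncertain.

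The gene of endosomal iron release was lower in mutants at the later stage. The DMT1 gene slc11a2 (ENSDARG00000024295), which many tissues express, had 34.7, 33.5 and 31.2 CPM in mon clutches 9, 11 and 13 at 22 hpf, against 40.7, 40.5 and 32.7 CPM in their siblings. The groups overlapped through the low sibling library of clutch 13, although mon was lower within each clutch. The log2 fold change was -0.20 ± 0.09, with an unadjusted p of 0.0431 and an adjusted p of 1 (edgeR). At 30 hpf slc11a2 had 29.6, 31.9 and 32.4 CPM in mon clutches 3, 4 and 9, against 42.7, 45.3 and 42.6 CPM in their siblings. These groups did not overlap, and mon stood at 69.4, 70.3 and 76.0% of its sibling library in clutches 3, 4 and 9. The log2 fold change was -0.48 ± 0.09, or 1.39-fold lower (edgeR, adjusted p = 0.0117). The call was lost without mon 3 (adjusted p = 0.0895), without sibling 4 (0.0811) and without clutch 9 (edgeR, adjusted p = 0.123), with log2 fold changes of -0.52 to -0.44 there.

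The gene of mitochondrial iron import was lower at both stages. The mitoferrin 1 gene slc25a37 (ENSDARG00000073743) had 13.3, 18.7 and 22.8 CPM in mon clutches 9, 11 and 13 at 22 hpf, against 42.8, 49.9 and 41.5 CPM in their siblings. All mon libraries were below all sibling libraries, but the mutants varied among themselves, at 31.0, 37.4 and 54.8% of the sibling of the same clutch. The level averaged 18.2 ± 4.76 CPM in mon pools and 44.7 ± 4.49 CPM in sibling pools (SD, n = 3 libraries each), and the log2 fold change was -1.30 ± 0.21, 2.46-fold lower (edgeR, adjusted p = 0.021). This call was lost without mon 11 (adjusted p = 0.128), sibling 9 (0.0741), sibling 11 (0.0992) or sibling 13 (0.0636) and without clutch 9 (edgeR, adjusted p = 0.265). It was lost as well with no filter on low counts (edgeR, adjusted p = 0.0696), while the log2 fold change stayed between -1.35 and -1.15 in all of these.

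At 30 hpf slc25a37 had 16.3, 10.1 and 10.5 CPM in mon clutches 3, 4 and 9, against 53.7, 41.1 and 43.9 CPM in their siblings. The groups stood far apart, at 12.3 ± 3.46 CPM in mon pools and 46.2 ± 6.63 CPM in sibling pools (SD, n = 3 libraries each). The gene fell by 1.91 ± 0.22 on the log2 scale, 3.76-fold (edgeR, adjusted p = 0.000802), and the call held in all 20 alternative fits. For slc25a28, the gene of mitoferrin 2, which is expressed outside the red cell lineage, the log2 fold change was -0.09 ± 0.16 at 22 hpf, and 0.07 ± 0.16 at 30 hpf (edgeR, adjusted p = 1 at both). In the RefSeq gene order of the assembly GRCz12tu, slc25a37 is the 1 gene of the set on the chromosome of trim33, with 1007 protein-coding genes between them.

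**Figure D2:**
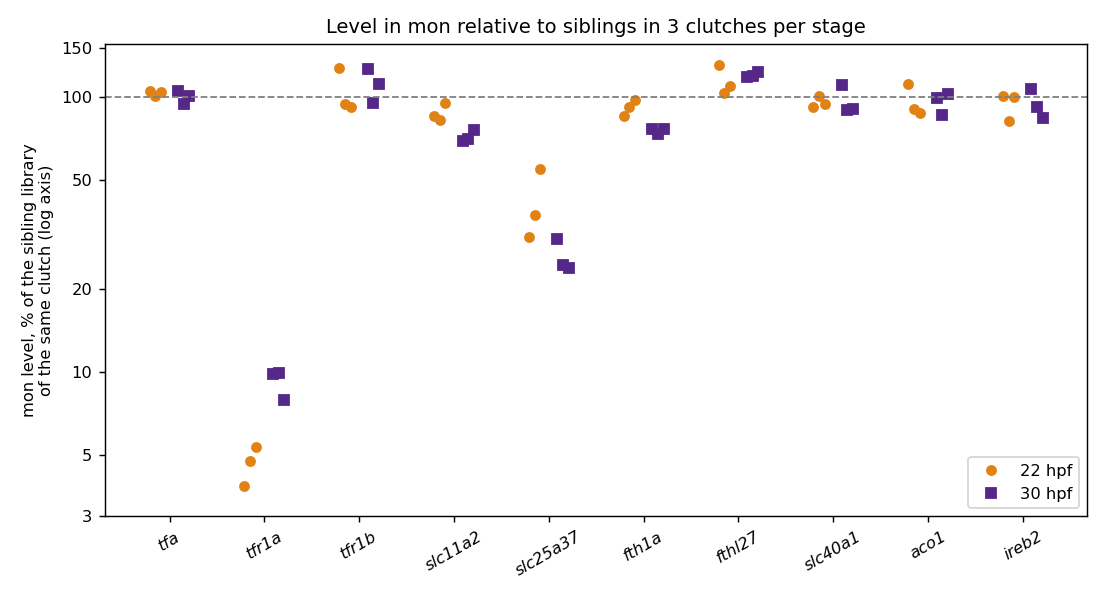
Level of each of the 10 iron genes in mon as a percentage of the sibling library of the same clutch, on a log axis, with 3 clutches at 22 hpf (orange circles) and 3 at 30 hpf (purple squares). The dashed line marks equal levels. The clutch values of tfr1a lie between 3.88 and 9.92%, those of slc25a37 between 24.0 and 54.8%, and the fth1a values at 30 hpf between 73.1 and 76.3%.

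Of the 2 ferritins, 1 was lower in mutants at 30 hpf and the other was not. Ferritin heavy chains oxidise iron and store it, and fth1a is a zebrafish gene of a ferritin heavy chain. At 22 hpf fth1a (ENSDARG00000015551) had 373.0, 317.9 and 366.8 CPM in mon clutches 9, 11 and 13, against 436.3, 346.5 and 377.6 CPM in their siblings. The groups overlapped because clutches differed, yet mon was below its sibling in each clutch. The log2 fold change was -0.13 ± 0.09 (95% interval -0.32 to 0.05, edgeR, adjusted p = 1), and the clutch block called it at -0.13 ± 0.03 (edgeR, adjusted p = 0.0222).

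At 30 hpf fth1a had 283.5, 310.9 and 315.2 CPM in mon clutches 3, 4 and 9, against 371.5, 425.6 and 413.1 CPM in their siblings. These groups did not overlap, and the 3 clutches gave nearly the same ratio, 75.2 ± 1.88% of the sibling level. Its log2 fold change was -0.41 ± 0.09, or 1.33-fold lower (edgeR, adjusted p = 0.0385). That call was lost when any of 7 libraries was left out, with adjusted p of 0.205, 0.142 and 0.0985 without mon 3, 4 and 9 and of 0.218 and 0.197 without siblings 4 and 9 of 30 hpf (edgeR). The other libraries were mon 13 and sibling 13 of 22 hpf, at 0.0646 and 0.0656, and without clutch 9 the adjusted p was 0.0859 (edgeR). The clutch block gave 6.15e-17 (edgeR, adjusted p). That fit left 4 residual degrees of freedom and shares its estimate of spread over genes. So small a value therefore does not measure the spread between the 3 clutches alone.

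The ferritin-like gene fthl27 (ENSDARG00000031776) had 168.1, 198.0 and 162.2 CPM in mon clutches 9, 11 and 13 at 22 hpf, against 128.8, 191.6 and 147.7 CPM in their siblings. At 30 hpf it had 158.2, 110.8 and 130.1 CPM in mon clutches 3, 4 and 9, against 133.8, 93.1 and 105.5 CPM in their siblings. The groups overlapped at both stages, while mon was above its sibling in all 6 clutch pairs, by the narrow range of 118.2 to 123.3% at 30 hpf. The mutant effect in log2 was 0.17 ± 0.19 at 22 hpf and 0.26 ± 0.19 at 30 hpf, with an edgeR adjusted p of 1 at both. The clutch block called both, at 0.19 ± 0.04 and 0.26 ± 0.05 (edgeR, adjusted p = 0.00974 and 2.87e-05). Of all tested genes 6.96% kept 1 direction in all 6 pairs, and 5 of the 10 iron genes did, namely tfr1a, slc25a37, slc11a2 and fth1a on the lower side and fthl27 on the higher. Zebrafish hold several ferritin genes of like sequence, so reads may be split between fth1a, FTH1 and the fthl copies.

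Export and its control showed no difference beyond the spread of the libraries. Ferroportin is expressed in the yolk syncytial layer of the embryo and passes maternal iron to the circulation. At 22 hpf slc40a1 (ENSDARG00000000241) had 42.8, 46.9 and 45.2 CPM in mon clutches 9, 11 and 13, against 46.6, 46.7 and 48.1 CPM in their siblings. At 30 hpf it had 67.6, 63.3 and 64.4 CPM in mon clutches 3, 4 and 9, against 61.3, 70.7 and 71.6 CPM in their siblings. Both stages showed overlapping groups, and the 95% intervals of the log2 fold change were -0.22 to 0.09 at 22 hpf and -0.21 to 0.09 at 30 hpf.

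The iron regulatory proteins, whose activity is set by iron at the protein level, likewise had overlapping groups. For aco1 (ENSDARG00000026376), the gene of IRP1, mon clutches 9, 11 and 13 had 37.5, 31.1 and 31.8 CPM at 22 hpf, against 33.6, 34.5 and 36.3 CPM in their siblings. At 30 hpf aco1 had 44.3, 39.3 and 50.5 CPM in mon clutches 3, 4 and 9, against 44.6, 45.9 and 49.4 CPM in their siblings. The log2 fold changes were -0.05 ± 0.10 and -0.06 ± 0.10 (edgeR, adjusted p = 1 at both stages). For ireb2 (ENSDARG00000021466), the gene of IRP2, mon clutches 9, 11 and 13 had 39.2, 29.3 and 40.5 CPM at 22 hpf, against 39.0, 35.7 and 40.5 CPM in their siblings. At 30 hpf ireb2 had 37.0, 36.4 and 39.1 CPM in mon clutches 3, 4 and 9, against 34.5, 39.8 and 46.7 CPM in their siblings. Its log2 fold changes were -0.08 ± 0.12 (95% interval -0.34 to 0.18) at 22 hpf and -0.10 ± 0.12 (-0.36 to 0.15) at 30 hpf.

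Averaged over both stages, the mutant effect was called for the same 4 genes as at 30 hpf, all lower, beside 1.12% of all tested genes (0.707% lower and 0.409% higher). The log2 fold changes were -3.93 ± 0.07 for tfr1a, -1.60 ± 0.15 for slc25a37, -0.34 ± 0.06 for slc11a2 and -0.27 ± 0.06 for fth1a (edgeR, adjusted p = 8.01e-16, 0.00013, 0.00849 and 0.045). For the 6 others the 95% intervals were -0.12 to 0.29 for tfr1b, -0.17 to 0.04 for slc40a1, -0.06 to 0.11 for tfa, -0.27 to 0.09 for ireb2, -0.20 to 0.09 for aco1 and -0.09 to 0.53 for fthl27. The clutch block, which called 3.66% of all genes, also called fthl27 higher in mon, by 0.23 ± 0.03 (edgeR, adjusted p = 2.2e-07). The call of slc11a2 was lost without clutch 9 (edgeR, adjusted p = 0.118). That of fth1a was lost without clutch 9 (edgeR, adjusted p = 0.162), with no filter on low counts (0.0545), and without any 1 of 9 libraries (0.052 to 0.148), whereas it held without mon 9 of 22 hpf, sibling 11 of 22 hpf or sibling 3 of 30 hpf.

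The size of the mutant effect changed with stage for 1 of the 10 genes. The fall of tfr1a was smaller at 30 hpf than at 22 hpf, with a log2 difference between the effects of 0.98 ± 0.14 (edgeR, adjusted p = 0.00672), in a comparison that called 0.0872% of all tested genes, 0.0689% lower and 0.0184% higher. Levels of tfr1a in mon rose 2.73-fold between 22 and 30 hpf while those in siblings rose 1.39-fold. In CPM the order is the other way: the mean rose by 6.01 CPM in mon and by 28.6 CPM in siblings, so the gap between mon and siblings widened to -93.4 CPM at 30 hpf, against -70.8 CPM at 22 hpf. The call of the difference was lost without clutch 9 (edgeR, adjusted p = 0.066) and by limma-voom (adjusted p = 0.18). For slc25a37, slc11a2 and fth1a the differences were -0.61 ± 0.30, -0.28 ± 0.13 and -0.28 ± 0.12 (edgeR, adjusted p = 1 for each), and the clutch block, which called 0.482% of all genes, called that of fth1a (edgeR, adjusted p = 0.000107).

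Between 22 and 30 hpf iron genes changed in both directions. In mon tfr1a, slc40a1 and aco1 rose and tfr1b fell, and in siblings the same 4 genes did so, which is 4 of 10 in each genotype beside 42.3% of all tested genes in mon (20.2% lower, 22.1% higher) and 43.1% in siblings (20.7% lower, 22.4% higher). The ferroportin gene slc40a1 rose by a log2 value of 0.53 ± 0.07 in mon (edgeR, adjusted p = 1.17e-05) and by 0.53 ± 0.07 in siblings (adjusted p = 1.29e-05). For aco1 the rise was 0.42 ± 0.10 in mon and 0.42 ± 0.10 in siblings (edgeR, adjusted p = 0.00212 and 0.00181). The log2 rise of tfr1a was 1.45 ± 0.12 in mon and 0.47 ± 0.09 in siblings (edgeR, adjusted p = 2.42e-08 and 0.000252). The other receptor, tfr1b, fell by 0.45 ± 0.14 in mon and by 0.55 ± 0.14 in siblings (edgeR, adjusted p = 0.0137 and 0.00376), and its call in mon was lost without mon 9 of 22 hpf (0.0549), mon 13 of 22 hpf (0.0585), mon 4 of 30 hpf (0.061) or clutch 9 (0.0987).

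Among the other genes, slc25a37 had a log2 stage change of -0.57 ± 0.22 in mon and 0.05 ± 0.20 in siblings, and fth1a one of -0.22 ± 0.09 in mon and 0.06 ± 0.08 in siblings (edgeR, adjusted p = 0.0597 and 0.0541 in mon). Both falls in mon were called under the clutch block, among 41.4% of all genes in mon and 42.7% in siblings (edgeR, adjusted p = 0.0417 for slc25a37 and 1.97e-07 for fth1a). The fall of slc25a37 in mon was called as well by DESeq2 (adjusted p = 0.0125) and limma-voom (0.0492). For fthl27 the log2 stage change was -0.41 ± 0.19 in mon and -0.49 ± 0.19 in siblings (edgeR, adjusted p = 0.127 and 0.0675). The block, DESeq2 and limma-voom called its fall in mon (adjusted p = 9.57e-05, 0.0319 and 0.0368) and in siblings likewise (2.19e-06, 0.00781 and 0.0237). Only clutch 9 was sampled at both stages, so stage and clutch are partly confounded in these values. Under the block the stage change averaged over both genotypes rests on clutch 9 alone. The block adjusted p values of the stage changes therefore do not measure their spread between clutches. In clutch 9 tfr1a had 2.86 CPM at 22 hpf and 8.38 CPM at 30 hpf in mon. The siblings had 73.7 CPM at 22 hpf and 105.7 CPM at 30 hpf.

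**Figure D3:**
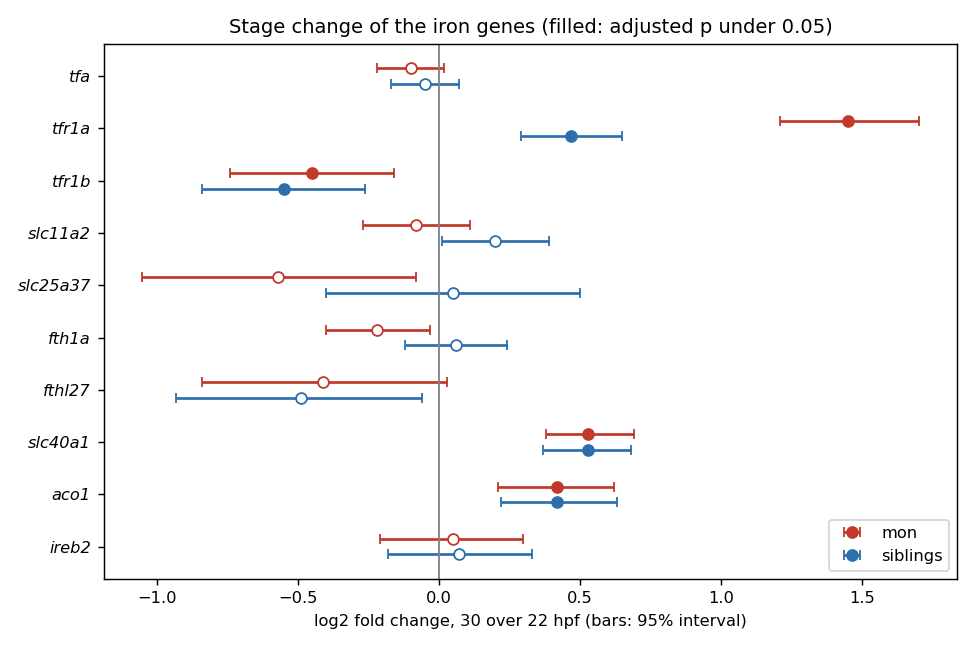
Log2 fold change of each iron gene at 30 over 22 hpf in mon (red, upper marks) and in siblings (blue, lower marks), with 95% intervals. Filled marks have an edgeR adjusted p under 0.05. The mon mark of tfr1a, at 1.45, lies apart from its sibling mark at 0.47, whereas slc40a1 has marks at 0.53 in both genotypes.

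In the wider iron and heme pathway, the fit without clutch called genes lower in mutants and 0 higher, and with clutch as a block a few were called higher at 22 hpf. The 8 lists held 87 IDs, of which 83 were tested and 73 lay outside the set of 10. Of these 73, 3 were lower at 22 hpf and 8 at 30 hpf, and 0 were higher (4.11% and 11% called, beside 0.445% and 0.79% of all genes). The 3 at 22 hpf were alas2, fech and abcb10, all from the list of mitochondrial iron import and its partners. Of these, alas2 and fech are heme synthesis genes, and alas2 is also an erythroid marker. The same 3 were among the 8 at 30 hpf. With an unadjusted p under 0.05, 1 of the 73 was higher at 22 hpf and 2 were at 30 hpf, and DESeq2 and limma-voom called 0 higher at either stage. The clutch block called 1.48% of all genes at 22 hpf and 3.09% at 30 hpf. Under it 4 of the 73 were lower and 2 higher at 22 hpf, and 12 were lower and 0 higher at 30 hpf. The 2 higher genes were cp, whose copper oxidase acts on exported iron in plasma (edgeR, block adjusted p = 0.00435) and FLVCR2 (0.0219). In the fit without the block, which called neither, their log2 fold changes were 0.53 ± 0.47 and 0.42 ± 0.12. The symbol FLVCR2 matched 2 IDs, and the values given are those of 1 of them. The block did not call the other at 22 hpf. Without the block, the counts over all 83 genes were 5 lower at 22 hpf and 12 lower at 30 hpf.

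In the list of transferrin uptake and endosomal release, 1 of 16 genes was lower at 22 hpf and 4 of 16 at 30 hpf, with medians of -0.01 and -0.05. The clutch block and DESeq2 each called 2 lower at 22 hpf and 5 at 30 hpf, and limma-voom called 1 and 3. None of these fits called a gene of the list higher. The ferrireductase gene steap3 (ENSDARG00000075641) had 3, 1 and 1 reads in mon clutches 3, 4 and 9 at 30 hpf, against 65, 16 and 18 reads in their siblings. All mon libraries were below all siblings, at 0.0792 ± 0.0594 CPM in mon pools and 1.53 ± 1.18 CPM in sibling pools, and the log2 fold change was -4.21 ± 0.80 (edgeR, adjusted p = 0.0133). With so few reads the size is imprecise, and the call was lost without mon 4 (0.118), mon 9 (0.105) or sibling 3 (0.0972) and by limma-voom (0.177). At 22 hpf steap3 had 12 reads summed over mon and 98 over siblings (edgeR, adjusted p = 0.091, or 1.79e-05 under the clutch block). The related receptor gene tfr2, which senses transferrin in liver and red cell precursors of mammals, averaged 3.42 ± 0.155 CPM in mon pools and 7.30 ± 0.673 CPM in sibling pools at 30 hpf (log2 -1.09 ± 0.20, edgeR, adjusted p = 0.00888). Its call was lost without mon 3 (0.0563), mon 9 (0.054), sibling 3 (0.0616) or clutch 9 (edgeR, adjusted p = 0.124). At 22 hpf tfr2 averaged 4.42 ± 0.993 CPM in mon pools and 4.80 ± 0.930 CPM in sibling pools.

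In the list of mitochondrial iron import and its partners, 4 of 10 genes were lower at 22 hpf and 5 of 10 at 30 hpf, with medians of -0.22 and -0.60. Besides slc25a37 these were alas2, fech and abcb10 at both stages and TMEM14C (ENSDARG00000110836) at 30 hpf. The gene fech encodes ferrochelatase, which places iron into heme. It averaged 17.9 ± 2.52 CPM in mon pools and 30.6 ± 0.936 CPM in sibling pools at 22 hpf (log2 -0.78 ± 0.11, edgeR, adjusted p = 0.00124, and 0.0523 without clutch 9). At 30 hpf fech averaged 11.1 ± 0.945 CPM in mon pools and 37.3 ± 3.78 CPM in sibling pools (log2 -1.75 ± 0.12, edgeR, adjusted p = 5.5e-08). The transporter gene abcb10, whose product stabilises mitoferrin 1 in mouse red cells, averaged 9.63 ± 1.55 CPM in mon pools and 16.6 ± 3.40 CPM in sibling pools at 22 hpf (log2 -0.78 ± 0.16, edgeR, adjusted p = 0.0286). That call was lost without mon 9 (0.139), mon 13 (0.158), sibling 11 (0.214), sibling 9 of 30 hpf (0.0513) or clutch 9 (0.294), on the 6 libraries of 22 hpf (0.182) and by limma-voom (0.0693).

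At 30 hpf abcb10 averaged 8.26 ± 0.866 CPM in mon pools and 17.3 ± 1.60 CPM in sibling pools (log2 -1.06 ± 0.16, edgeR, adjusted p = 0.000994), a call that held in every alternative fit. TMEM14C, a carrier of heme precursors in mouse mitochondria, averaged 8.19 ± 1.12 CPM in mon pools and 16.9 ± 3.07 CPM in sibling pools at 30 hpf (log2 -1.05 ± 0.17, edgeR, adjusted p = 0.0035). Red cells start heme synthesis with the enzyme of alas2, which is also 1 of the 10 erythroid markers, and its log2 fold changes were -4.57 ± 0.23 at 22 hpf and -5.72 ± 0.22 at 30 hpf.

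The remaining lists held few calls. Of 8 ferritin and iron chaperone genes, fth1a alone was called without the clutch block, at 30 hpf. The block called fth1a lower and fthl27 higher at both stages. At 30 hpf it also called ncoa4 lower, whose product delivers ferritin for breakdown (edgeR, adjusted p = 0.00846 with the block and 0.781 without, log2 -0.24 ± 0.10 without). Among 13 genes of heme transport and breakdown, the biliverdin reductase genes blvra and blvrb were lower at 30 hpf. The first averaged 4.45 ± 0.379 CPM in mon pools and 9.44 ± 0.328 CPM in sibling pools, and the second 17.5 ± 4.83 CPM in mon pools and 32.9 ± 4.09 CPM in sibling pools (edgeR, adjusted p = 0.0173 and 0.012). For blvra no call remained when any 1 of the 6 libraries of that stage was left out (0.0525 to 0.114) or clutch 9 was (0.175). That of blvrb was lost without mon 4 (0.062), mon 9 (0.0863), sibling 3 (0.0781), sibling 9 (0.0541) or clutch 9 (0.506), and on the 6 libraries of 30 hpf (edgeR, adjusted p = 0.124).

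None of 22 genes of the iron-sulfur cluster assembly list, which also holds the cluster-carrying enzyme gene xdh, was called at either stage by edgeR, DESeq2 or limma-voom. At an unadjusted p under 0.05 there were 0 at 22 hpf and 2 at 30 hpf. The clutch block lowered the adjusted p of glrx5, whose loss causes the anemia of the zebrafish line shiraz, to 0.0242 at 30 hpf, against 0.319 without the block (edgeR, log2 -0.28 ± 0.09). The lists of iron export (6 tested genes), iron regulatory proteins (3) and other metal carriers (5) had 0 calls at both stages by the 3 tools without the block and 0 genes with an unadjusted p under 0.05. The block called cp of the export list, as above, and at 30 hpf fbxl5, whose product marks IRP2 for breakdown (edgeR, adjusted p = 0.00188 with the block and 1 without). Without the block the log2 value of fbxl5 was -0.30 ± 0.19.

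**Figure D4:**
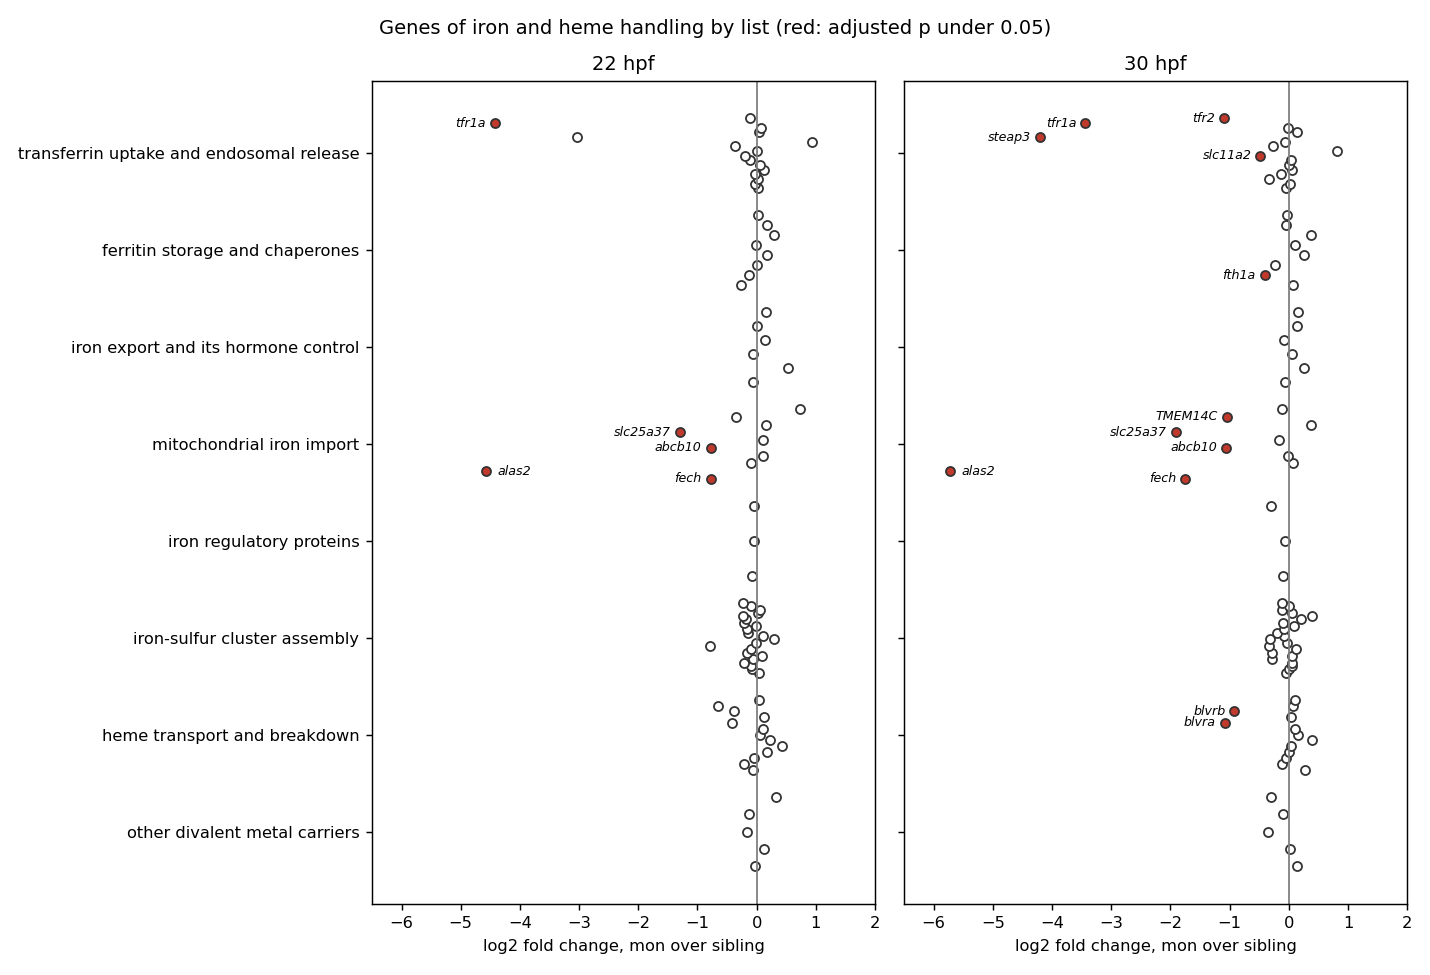
Log2 fold change, mon over sibling, of the 83 tested genes of 8 iron and heme lists at 22 hpf (left) and 30 hpf (right). Each circle is a gene, placed by list on the vertical axis, and red circles have an edgeR adjusted p under 0.05. All red circles lie below 0. Most stand in the list of transferrin uptake and in that of mitochondrial iron import and its partners, which includes heme synthesis genes such as alas2 and fech.

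Profiles over the 12 libraries were compared for tfr1a and slc25a37. Likeness was the root mean square difference of log2 CPM after each gene was centred on its own mean, over 18520 tested genes with a mean of at least 1 CPM, and it is a description since all genes share the same libraries. The genes nearest to tfr1a were the globin hbae5 (0.67), the erythroid transcription factor gata1a (0.67), the gene (ENSDARG00000096331, 0.72), NMT1 (ENSDARG00000057206, 0.84) and the globin hbae4 (0.85). The globins hbae5 and hbae4 averaged 0 and 0.0615 CPM in mon at 22 hpf and 0.0985 and 0 CPM in mon at 30 hpf, so their distances depend on the offset added before the logarithm. Levels of gata1a averaged 0.352 CPM in mon pools and 6.55 CPM in sibling pools at 22 hpf and 0.410 CPM in mon pools and 8.97 CPM in sibling pools at 30 hpf. For ENSDARG00000096331 the means in mon pools were 0.181 CPM at 22 hpf and 0.126 CPM at 30 hpf. At such low levels in mon the offset also enters the distances of gata1a and ENSDARG00000096331. The genes nearest to slc25a37 were fech (0.28), the blood transcription factor gfi1b (0.31), parm1 (0.31), the heme enzyme urod (0.37) and acer2 (0.40). The distance between tfr1a and slc25a37 themselves was 1.37, and between slc25a37 and slc11a2 it was 0.73. None of the 5 nearest genes of either was another of the 10.

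Summed marker levels of other blood cells overlapped between the genotypes. Summed over 6 macrophage markers the level was 47.8 to 52.4 CPM in mon and 49.6 to 56.2 CPM in siblings at 22 hpf, and 100.2 to 112.5 CPM in mon and 105.4 to 107.9 CPM in siblings at 30 hpf. For 4 neutrophil markers it was 35.3 to 40.1 CPM in mon and 39.3 to 41.8 CPM in siblings at 22 hpf, and 37.5 to 40.2 CPM in mon and 36 to 45.9 CPM in siblings at 30 hpf. Most of each sum came from a single gene. In the macrophage sum cd68 averaged 44.4 CPM in mon pools and 46.4 CPM in sibling pools at 22 hpf. At 30 hpf cd68 averaged 81.9 and 83.5 CPM. In the neutrophil sum cebpa averaged 34.2 CPM in mon pools and 36.2 CPM in sibling pools at 22 hpf. At 30 hpf cebpa averaged 24.4 and 26.0 CPM. The overlap of the sums therefore says little about the other markers. No marker of either list was called (edgeR, adjusted p under 0.05), and 1 macrophage marker had an unadjusted p under 0.05 at 22 hpf. Macrophages recycle iron and express ferritin and ferroportin.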

How the data were processed

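RNA of 12 whole-embryo pools was sequenced after removal of ribosomal RNA, as directional libraries with ERCC spike-ins, per the labels' protocols. The authors deposited raw read counts per Ensembl gene in 1 table. The submitters' processing notes name HTSeq, TopHat2 2.0.11, Cufflinks 2.2.1, cutadapt, FastQC and the build GRCz11 without roles. Neither annotation release nor strand setting is given in the sources used here, so reads of overlapping or antisense genes may be miscounted. Every line of the table names a gene (0 exceptions). Symbols matched 29201 of 32520 IDs (89.8%). Of 95 names in the 8 pathway lists 8 matched no ID, and of the marker names 6 did not.

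The main test was the robust quasi-likelihood F test of edgeR 4.0.16 in R 4.3.3 with TMM scaling, the default low-count filter and 4 groups in 1 fit (21778 genes, 8 residual degrees of freedom, biological coefficient of variation 0.142), adjusted by Benjamini-Hochberg over all genes. Standard errors are approximate, dividing the size of each log2 fold change by the root of its F statistic. Alternatives were DESeq2 1.42.0, limma-voom (limma 3.58.1), other scalings, no filter, the libraries of 1 stage, clutch as a block, each library left out and clutch 9 left out. The clutch numbers pair mon and sibling pools of the same parents, per the labels. Deviations from group means correlated at 0.509 to 0.69 within clutches over 10884 genes, and at most at -0.193 between them. With 3 libraries a group, centring pushes the values between clutches negative once those within clutches are positive. The negative values are thus no separate evidence of the pairing. The replicates of a group are clutches, which are separate matings. The main fit holds no clutch term, so it treats mon and sibling pools of a clutch as independent libraries. It does so too for clutch 9, which enters at both stages. The fit with clutch as a block left 4 residual degrees of freedom, and edgeR shares its estimate of spread over genes. The adjusted p values of the block, for mutant effects too, thus do not measure the spread between clutches alone. Within groups, pairs of libraries had a chi-square per gene of at least 6.46, so none is a repeat of another.

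All 10 genes are named. From the pathway lists, genes with an adjusted p under 0.05 at either stage are named, at most 6 a list. For tfr1a and slc25a37 the 5 genes of most like profile are named. The genes and lists were chosen with earlier results of these data known. The genes slc25a28, hbbe3, trim33, glrx5, cp, FLVCR2, ncoa4, fbxl5, apobb.1, apoa1b, mttp, cd68, cebpa and xdh were named outside that rule, after their values were seen. With the sources at hand no sequences are shown.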

Additional observations from a re-analysis of the deposited data

Results flagged for a closer look

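The mutant effect on tfr1a differed between the stages in a test of the difference itself. The log2 fold change of mon over sibling was 0.98 higher at 30 hpf than at 22 hpf (edgeR, adjusted p = 0.00672), with -3.44 at 30 hpf and -4.42 at 22 hpf. All 3 clutch ratios of 30 hpf (9.83, 9.92 and 7.92%) were above all 3 of 22 hpf (3.88, 4.78 and 5.35%). The call was lost without clutch 9 (edgeR, log2 0.97, adjusted p = 0.066) and by limma-voom (0.98, adjusted p = 0.18). For the 10 erythroid markers the median of the same difference was -2.36, and 3 of them were called lower and 0 higher (edgeR, adjusted p under 0.05). With an unadjusted p under 0.05, 8 were lower and 0 higher, and DESeq2 called 4 lower and limma-voom 2, with 0 higher by either.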

How the results depend on the processing

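Of 1046 alternative values for 54 values of the iron genes, 35 lost a call, 29 gained one and 23 were counted as changed in sign, none of them called. The other 959 kept their side of the threshold and, apart from tfa at 30 hpf, their direction. That gene had the other sign in 6 of 20 fits, of which 4 are among the 23. Calls of the 10 genes at 22 hpf numbered 2, with 1 to 2 when a library was left out, 1 with no filter, 4 with clutch as a block, 1 without clutch 9 and 1 at an adjusted p under 0.01. At 30 hpf there were 4, with 2 to 4 on leaving out a library and 2 without clutch 9 or at the stricter threshold. For the difference between stages the count was 1, and it was 2 with the block, 0 without clutch 9 and 0 by limma-voom (1 on leaving out any library). For the stage change it was 4 in mon, 3 to 6 on leaving out a library, 7 with library totals only or with the block and 6 by DESeq2 or limma-voom. In siblings it was 4, 4 to 5 on leaving out a library, 6 with library totals only and 5 with the block, DESeq2 or limma-voom. For the mean of both stages it was 4, 3 to 4 on leaving out a library and 2 without clutch 9. Over all genes 97 were called at 22 hpf, 75 to 95 on leaving out a library, 322 with the block, 63 on the 6 libraries of the stage, 60 without clutch 9 and 157 by DESeq2. At 30 hpf 172 were called, 121 to 176 on leaving out a library, 673 with the block and 95 without clutch 9. The difference had 19, 16 to 21 on leaving out a library, 105 with the block, 9 without clutch 9 and 33 by DESeq2. The mean of both stages had 243, 201 to 232 on leaving out a library, 796 with the block and 158 without clutch 9. The stage change called 9391 in siblings (8240 to 9539 on leaving out a library) and 9202 in mon (8036 to 9298). Signs changed for small values: tfr1b at 22 hpf (-0.11 without clutch 9, -0.05 to 0.22 on leaving out a library), tfa at 30 hpf (-0.005 and -0.03 to 0.05), ireb2 at 22 hpf (-0.17 to 0.05) and 30 hpf (-0.21 to 0.01), and aco1 at 30 hpf (-0.16 to 0.02). In the sibling stage change they changed for slc25a37 (-0.04 with library totals, -0.07 to 0.13 on leaving out a library), fth1a (-0.03 with library totals, -0.02 with the block, -0.01 to 0.15) and ireb2 (-0.02 with library totals, -0.01 without clutch 9, -0.05 to 0.17), and in mon for ireb2 (-0.03 with library totals, -0.09 to 0.13). The causes were not tested, except that leaving out clutch 9 leaves 2 libraries a group. Library totals in place of TMM moved the median of all genes in the stage comparisons to -0.10 in siblings and -0.09 in mon. The block changed no call of the iron genes other than those given beside their results.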

Other observations

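Genes of the iron-sulfur cluster list were more often lower than higher at 30 hpf than at 22 hpf in both genotypes. Between mon and siblings the list had no call without the clutch block, and the block called glrx5 at 30 hpf. The list also holds xdh, whose enzyme carries such clusters and does not build them. It was 1 of the 2 genes called higher in siblings (log2 4.70 ± 0.43). In mon 10 of 22 were lower and 2 higher at 30 hpf, with a median log2 stage change of -0.27, and in siblings 8 were lower and 2 higher, with a median of -0.23 (edgeR, adjusted p under 0.05). Over all tested genes 20.2% were lower and 22.1% higher in mon, and 20.7% lower and 22.4% higher in siblings. The clutch block called 41.4% of all genes in mon and 42.7% in siblings. In this list it called 6 lower and 2 higher in mon, and 6 lower and 1 higher in siblings.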
